A study of Mus musculus with 32 samples.

Results

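The carboxylesterases described here are 10 mouse liver genes, Ces1b, Ces1c, Ces1d, Ces1e, Ces1f, Ces1g, Ces2a, Ces2e, Ces3a and Ces3b, taken by gene symbol from tables of 41585 gene entries that list 20 carboxylesterase genes in all. They were measured by RNA sequencing in 32 liver libraries that form 8 groups of 4. All mice were labelled C57BL/6 (C57Bl/6J in the study's methods), were 10 weeks old when the diets began, and were fed for 8 weeks either normal chow (ND) or a choline-deficient, high-fat diet defined by its L-amino acids (CDAHFD, with 62% fat and 0.1% methionine), a diet used to induce steatohepatitis. In each sex there were 4 groups, ND-fed wild type (WT), CDAHFD-fed WT, ND-fed Cyp2b-null and CDAHFD-fed Cyp2b-null. Cyp2b-null mice carry a CRISPR/Cas9 deletion of Cyp2b9, Cyp2b10 and Cyp2b13 in every tissue, whereas WT mice carry all of these genes. The WT mice were bought from a supplier and the sources used here do not give the Cyp2b-null mice as their littermates, so genotype and origin cannot be told apart. Female and male counts were deposited in separate tables, so sex and table cannot be told apart either.

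Carboxylesterases are serine hydrolases, most of them held in the lumen of the hepatocyte endoplasmic reticulum, that split esters, amides and thioesters of drugs, prodrugs, pesticides and lipids. Several members of the Ces1 subfamily also hydrolyse triacylglycerol, and Ces1d (triacylglycerol hydrolase) supplies fatty acids from stored lipid for the assembly of very low density lipoprotein (VLDL). Enzymes of the Ces2 subfamily favour esters with a small acyl group and a large alcohol group. In mice, unlike humans, 1 of the Ces1 enzymes, Ces1c, is secreted and circulates as the main plasma carboxylesterase.

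The 10 genes lie in a pair of clusters on mouse chromosome 8 (GRCm38.p6). The 6 Ces1 genes are on the minus strand between 93056725 and 93337209, in the order Ces1b (93056725 to 93080017), Ces1c (93099015 to 93131283), Ces1d (93166072 to 93197804), Ces1e (93201218 to 93229631), Ces1f (93256236 to 93279766) and Ces1g (93302369 to 93337209). The other 4 are on the plus strand 11396.8 kb away, Ces2a (104734003 to 104741634), Ces2e (104926260 to 104934672), Ces3a (105048576 to 105061928) and Ces3b (105083733 to 105093929). Each is annotated as protein coding. Promoter sequence, here the 250 bases before the most upstream listed transcription start, was found for 7 of the 10 genes in the RefSeq table for GRCm38.p6. It is given here for the pairs of genes that shared the longest runs of bases, since in both pairs 1 gene was called lower on CDAHFD in all 4 diet comparisons and the other was not. Ces1b (chr8:93080018-93080267, minus strand) and Ces1c (chr8:93131284-93131533, minus strand) shared a run of 58 bases, printed in capitals, which ended 39 bases before the start of Ces1b and 127 bases before that of Ces1c. Ces1b has 2 listed starts, so its distance depends on the start taken.
Ces1b: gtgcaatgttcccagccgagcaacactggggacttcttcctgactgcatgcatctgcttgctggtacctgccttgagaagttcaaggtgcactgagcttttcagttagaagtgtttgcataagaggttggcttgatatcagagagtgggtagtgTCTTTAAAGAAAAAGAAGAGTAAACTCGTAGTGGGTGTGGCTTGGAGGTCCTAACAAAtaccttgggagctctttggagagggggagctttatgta
Ces1c: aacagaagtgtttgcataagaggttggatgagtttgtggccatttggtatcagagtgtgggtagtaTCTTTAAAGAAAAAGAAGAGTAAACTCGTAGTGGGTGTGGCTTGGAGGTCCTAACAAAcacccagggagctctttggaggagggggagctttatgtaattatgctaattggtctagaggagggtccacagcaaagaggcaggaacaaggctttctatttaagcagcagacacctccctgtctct
Ces2a (chr8:104733753-104734002, plus strand) and Ces2e (chr8:104926010-104926259, plus strand) shared a run of 17 bases, also in capitals, that ended 189 bases before the start of Ces2a and 167 bases before that of Ces2e.
Ces2a: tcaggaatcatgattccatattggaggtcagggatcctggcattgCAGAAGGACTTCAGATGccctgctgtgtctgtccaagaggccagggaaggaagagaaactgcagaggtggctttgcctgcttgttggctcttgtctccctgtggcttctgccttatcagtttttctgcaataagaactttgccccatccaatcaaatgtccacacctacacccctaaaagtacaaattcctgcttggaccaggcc
Ces2e: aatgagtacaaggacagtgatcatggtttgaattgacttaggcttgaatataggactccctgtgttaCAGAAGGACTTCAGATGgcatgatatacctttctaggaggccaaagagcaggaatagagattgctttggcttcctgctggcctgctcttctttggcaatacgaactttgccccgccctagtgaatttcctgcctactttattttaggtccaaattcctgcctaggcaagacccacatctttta
No other pair among these 7 promoters shared a run longer than 11 bases. The letters TATAAA, searched on both strands, were in 12.4% of the 32851 promoter windows of the table and, among the members, in those of Ces1g and Ces3b. The letters CAAAGTCCA (0.384% of windows) and TTCNNNGAA (7.02%), the HNF1-like motif (0.009%) and the nuclear receptor element DR4 (0.015%) were in none of the members' windows, which says only that these letters are not in those 250 bases.

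The libraries held 2906411 to 10166959 counts (median 5368808), and 3 counts, taken as the floor of detection, correspond to 0.295 to 1.03 CPM (counts scaled to a common library total), depending on depth. All members lay far above this floor, with 158 counts or more in every library, and all 10 passed the low-count filter. Cyp2b13 had at most 1 count in Cyp2b-null female libraries and 470 or more in WT female libraries, and in ND-fed males Cyp2b10 had 1 to 9 counts in Cyp2b-null and 33 to 97 in WT libraries. In CDAHFD-fed males Cyp2b9 had 2 to 7 counts in Cyp2b-null and 118 to 364 in WT libraries. Genotypes overlapped for Cyp2b9 in ND-fed males (4 to 18 in Cyp2b-null and 0 to 15 in WT). They also overlapped for Cyp2b10 in CDAHFD-fed males (0 to 6 and 0 to 7). Cyp2b9 kept 4 to 8 counts in ND-fed and 2 to 7 in CDAHFD-fed Cyp2b-null females, some above the floor, against 683 or more in WT females. Counts of replicate libraries differed by 3.17 to 59.5 times the sampling noise (chi-square per degree of freedom), so no library was a copy of another. The highest ratios were those of ND-fed WT male replicate 2 and CDAHFD-fed Cyp2b-null male replicate 3, and leaving out either left the counts of members called in the diet comparisons as they were (6 in WT and 8 in Cyp2b-null males). The 9 hepatocyte marker genes in the tables (albumin and others) summed to at least 69292 CPM in every library.

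Most of the 10 members were lower in CDAHFD-fed than in ND-fed mice, in both sexes and both genotypes. Ces1c, Ces1d, Ces1e, Ces1f, Ces2a and Ces3b were called lower (edgeR quasi-likelihood test, Benjamini-Hochberg adjusted p under 0.05 over all genes tested) in each of the 4 diet comparisons, whereas Ces1b and Ces1g were called in none. In WT females 7 of 10 members were called, 6 lower and 1 higher, where 24.1% of the 13226 genes tested were called and 10.2% were called lower. In Cyp2b-null females 6 members were called, all lower, with 30.8% of genes called and 13.9% lower. In WT males 6 of 10 were called lower, against 15% of the 13460 genes tested (33% called in either direction), and in Cyp2b-null males 8 were called lower, against 17.1% (37.4% in either direction). The median log2 fold change of the members was −1.13 in WT females, −0.82 in Cyp2b-null females, −1.44 in WT males and −1.48 in Cyp2b-null males, while that of all genes lay between −0.023 and 0.027. The ND and CDAHFD libraries did not overlap for 6 members in WT females (26% of all genes did not), 7 in Cyp2b-null females (30.8%), 6 in WT males (28.4%) and 8 in Cyp2b-null males (36.8%).

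**Figure D1:**
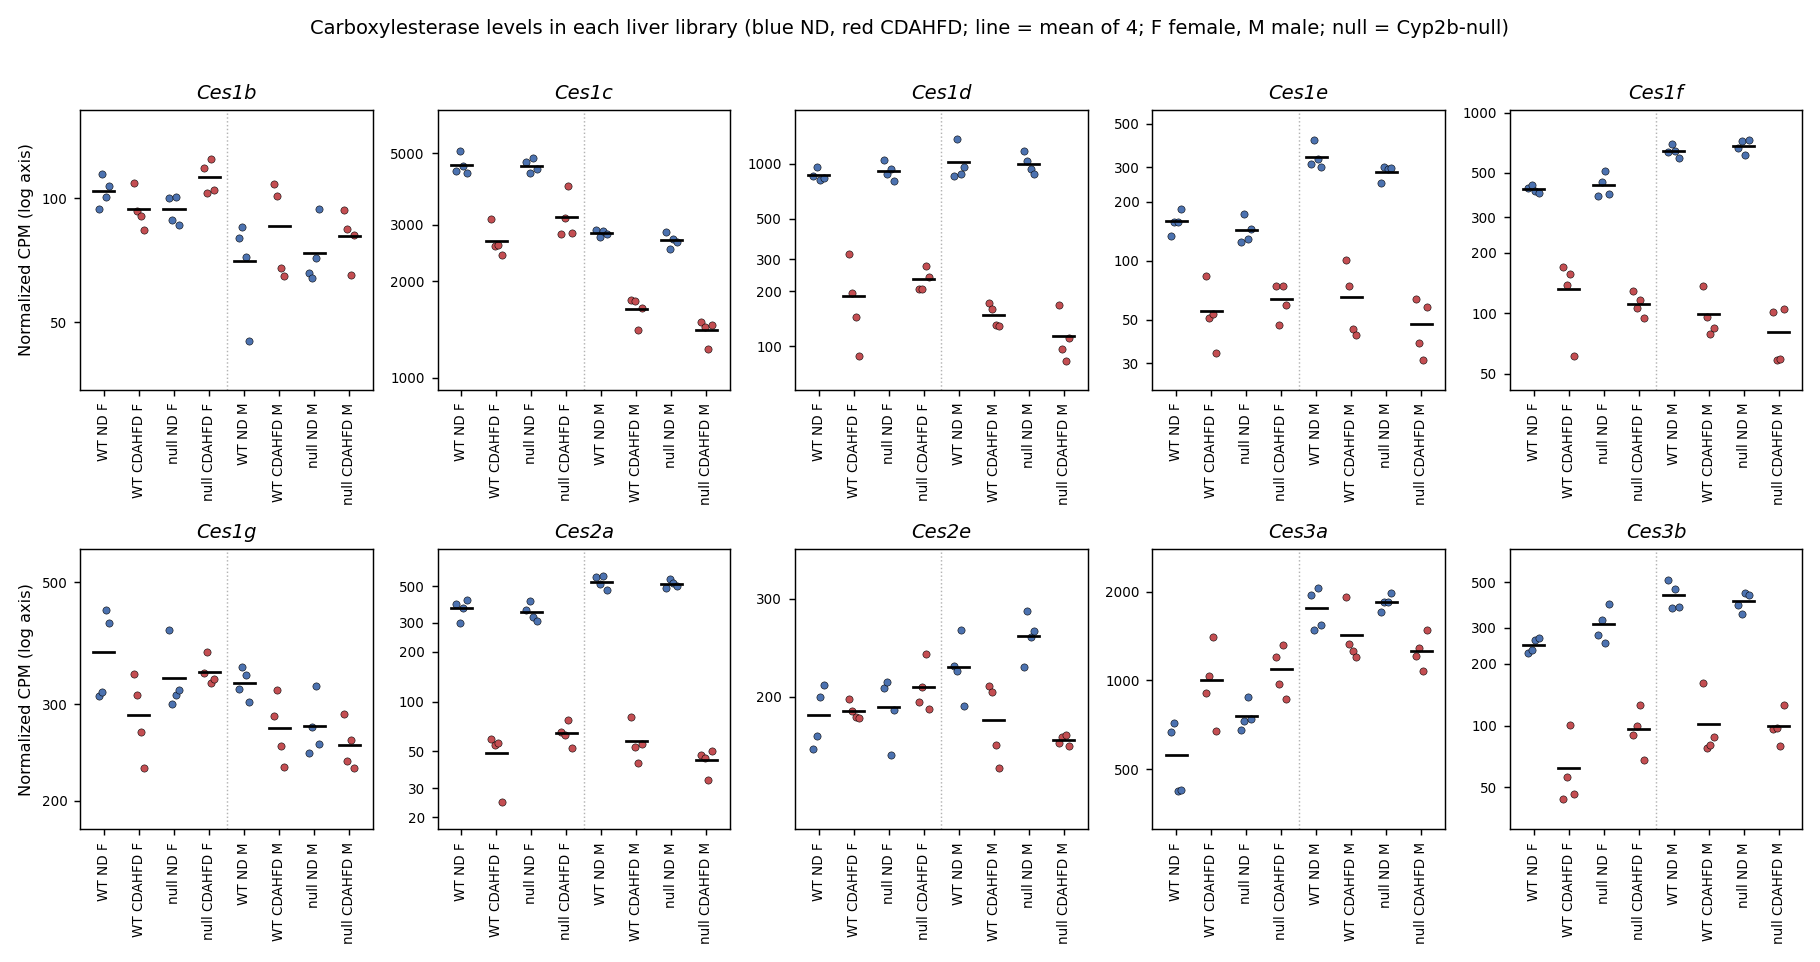
Normalized CPM of each carboxylesterase in each of the 32 liver libraries, on a log axis, by group (points are libraries, blue ND and red CDAHFD, and the line is the mean of 4). For Ces2a every CDAHFD library lay at or below 81.2 CPM and every ND library at or above 298 CPM, whereas for Ces1g the diets overlapped in both sexes and both genotypes.

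The diets also differed in RNA of other liver cell types, which bears on all diet results given here. The sum of the hepatocyte markers was 140044 to 202804 CPM in ND-fed and 91899.5 to 114966 CPM in CDAHFD-fed WT females, and 146590.0 to 182002 and 84765 to 131833 CPM in Cyp2b-null females. In WT males it was 138715 to 150980.0 and 73884 to 124464 CPM, and in Cyp2b-null males 121398 to 136923 and 69292 to 105784 CPM. Of these 9 markers, 6 were called lower in WT females, in Cyp2b-null females and in Cyp2b-null males, and 7 in WT males, with 1 called higher in each, and their median log2 fold changes were −0.75, −0.58, −0.63 and −0.65 in that order. Macrophage markers (8 genes, with Trem2 listed at 0 in all libraries) summed to 132 to 484 CPM over the ND groups and 794 to 2094 CPM over the CDAHFD groups, and 6 of 7 tested were called higher in each diet comparison. Stellate cell and fibroblast markers (8 genes) summed to 97.5 to 297 CPM on ND and 469.8 to 910.1 CPM on CDAHFD, with 7 of 8 called higher each time. The sums of the 6 cholangiocyte markers were 20.7 to 61.6 CPM on ND and 99.2 to 318 CPM on CDAHFD, those of the 6 lymphocyte markers 4.65 to 20.7 and 21.8 to 53.7 CPM, and those of the 5 endothelial markers 139.9 to 281 and 117 to 239.7 CPM. Markers of intestine and exocrine pancreas (6 genes) summed to 40.0 to 104 CPM on ND and 58.6 to 248 CPM on CDAHFD. Most of these counts were of Fabp2 (138 to 1324 per library), with Lgals4 at 9 to 99, Vil1 at 0 to 19, and Cpa1 and Prss2 at 0 to 2 counts. In bulk liver, fewer hepatocytes and less RNA per hepatocyte cannot be told apart, and the part of these shifts in the carboxylesterase results was not tested.

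The scaling of the libraries mattered for the direction of small changes. When libraries were scaled by their total count only, in place of TMM factors, the median log2 fold change of all genes moved to 0.32 in WT females, 0.28 in Cyp2b-null females, 0.37 in WT males and 0.36 in Cyp2b-null males. The genes called then split into 3910 higher and 491 lower in WT females (1838 and 1355 with TMM), 4019 and 666 in Cyp2b-null females (2240 and 1834), 5111 and 580 in WT males (2426 and 2017), and 5159 and 818 in Cyp2b-null males (2737 and 2301). Ces1d, Ces1e, Ces1f, Ces2a and Ces3b were lower and called under each scaling in all 4 comparisons. With library size only, 8 members were called in WT females (2 higher and 6 lower), 8 in Cyp2b-null females (3 higher and 5 lower), 7 in WT males (1 higher and 6 lower) and 7 in Cyp2b-null males (1 higher and 6 lower).

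Ces2a, an enzyme of the Ces2 subfamily, had the largest fall in all 4 diet comparisons. Ces2a was 389.8, 298, 370.4 and 410.2 CPM in ND-fed WT females and 59.1, 54.8, 56.2 and 24.7 CPM in CDAHFD-fed WT females. It was 359, 404, 328 and 308 CPM in ND-fed and 65.9, 63.0, 77.5 and 52.6 CPM in CDAHFD-fed Cyp2b-null females. Every CDAHFD library lay below every ND library, and the lowest of the CDAHFD-fed WT females, replicate 4, stood apart from its group. In males the ND values were higher, 567, 517, 572 and 476 CPM in WT and 484, 553, 520.3 and 499 CPM in Cyp2b-null. The CDAHFD values were 81.2, 53.3, 42.8 and 55.6 CPM in WT and 47.8, 45.4, 33.7 and 50.2 CPM in Cyp2b-null males, again with no overlap between diets. The log2 fold changes of Ces2a were −2.90 (SE 0.211, adjusted p = 4.37e-09) in WT females, −2.41 (SE 0.206, adjusted p = 4.01e-08) in Cyp2b-null females, −3.20 (SE 0.168, adjusted p = 2.84e-11) in WT males and −3.54 (SE 0.171, adjusted p = 5.72e-12) in Cyp2b-null males, or 7.44-fold, 5.32-fold, 9.17-fold and 11.6-fold lower. Of the 50-base windows of its annotated transcripts, 16.4% also occur in transcripts of genes outside the family (8.13% of the 100-base windows), so part of its reads could be assigned elsewhere.

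Ces2e, of the same cluster, which shares the 17-base run printed above, was called in 1 of the 4 comparisons. Ces2e lay at 161 to 210.3 CPM in ND-fed and 184 to 198 CPM in CDAHFD-fed WT females, and at 157 to 212 and 190.4 to 239 CPM in the Cyp2b-null females. These ranges overlapped, and the log2 fold changes were 0.052 (SE 0.126, adjusted p = 0.815) and 0.14 (SE 0.126, adjusted p = 0.407), with 95% intervals of −0.21 to 0.31 and −0.12 to 0.41. In WT males Ces2e lay at 192 to 264 CPM on ND and 149 to 209 CPM on CDAHFD, a change of −0.32 (SE 0.124, adjusted p = 0.0540) that missed the threshold and passed it without ND-fed replicate 4 or CDAHFD-fed replicate 1 or 2 (−0.39 to −0.37, adjusted p = 0.0258 to 0.0391). In Cyp2b-null males it was 226, 285, 256 and 263 CPM on ND and 165, 169, 171 and 163 CPM on CDAHFD, without overlap, a change of −0.62 (SE 0.124, adjusted p = 0.000451). Scaled by library size only, the changes of Ces2e were 0.38 and 0.39 in WT and Cyp2b-null females (adjusted p = 0.0262 and 0.0198), 0.060 in WT males and −0.25 in Cyp2b-null males (adjusted p = 0.715 and 0.101). The number of Ces2e counts per Ces2a count was 0.414 to 0.571 on ND and 3.28 to 7.44 on CDAHFD in WT females, and 0.401 to 0.461 and 2.57 to 3.84 in WT males, values that describe these libraries and were not tested.

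**Figure D2:**
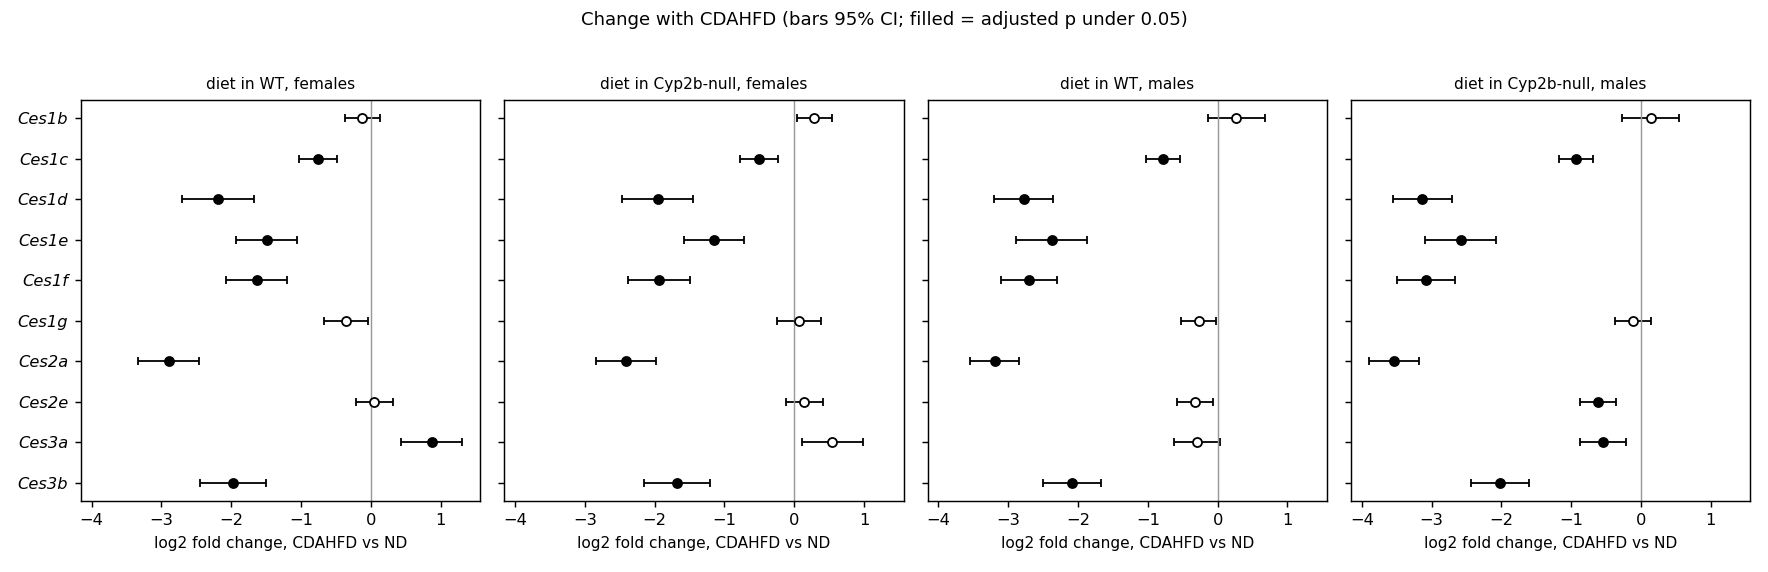
Log2 fold change of each carboxylesterase between CDAHFD-fed and ND-fed mice in WT females, Cyp2b-null females, WT males and Cyp2b-null males, with 95% confidence intervals (filled points passed the adjusted p threshold of 0.05). Ces2a, Ces1d, Ces1f, Ces1e, Ces3b and Ces1c lie below 0 in all 4 panels, and Ces3a lies at 0.87 in WT females and −0.54 in Cyp2b-null males.

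Ces1d, the triacylglycerol hydrolase that feeds VLDL assembly, was the next most changed gene in WT mice. Ces1d was 859, 954, 813 and 831 CPM in ND-fed WT females and 321, 196, 145 and 88.3 CPM in CDAHFD-fed WT females. Among Cyp2b-null females it was 1049, 877, 936 and 800.2 CPM on ND and 206, 206, 276 and 240.1 CPM on CDAHFD. The diets did not overlap, and the CDAHFD-fed WT females were spread widely, from replicate 4 at the bottom to replicate 1 at the top. WT males had 851, 1371, 883 and 959 CPM on ND, where replicate 2 was the highest, and 172, 160.1, 131 and 129.6 CPM on CDAHFD. Cyp2b-null males had 1170.3, 1030.3, 931 and 874 CPM on ND and 168, 96.3, 82.6 and 111 CPM on CDAHFD, with replicate 1 the highest on both diets. The log2 fold changes were −2.18 (SE 0.248, adjusted p = 1.98e-06) in WT females and −1.96 (SE 0.246, adjusted p = 6.07e-06) in Cyp2b-null females, and −2.78 (SE 0.202, adjusted p = 2.82e-09) and −3.13 (SE 0.205, adjusted p = 6.12e-10) in the corresponding males. Ces1d shares only 1.08% of its 50-base windows with other carboxylesterases.

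Ces1f, another hepatic enzyme of the Ces1 subfamily, was lower in all 4 comparisons as well. Ces1f was 419.99, 436, 408 and 397 CPM in ND-fed WT females and 169.6, 138, 157 and 61.4 CPM in CDAHFD-fed WT females. Cyp2b-null females had 384, 451, 510.00 and 394 CPM and 129, 106, 116 and 94.8 CPM of it. No library of one diet reached those of the other, although replicate 4 was again the lowest of the CDAHFD-fed WT females. In males Ces1f was 633, 697, 645 and 591 CPM in ND-fed WT, 136, 95.6, 79.0 and 84.0 CPM in CDAHFD-fed WT, 667, 721, 614 and 727 CPM in ND-fed Cyp2b-null and 101, 58.6, 59.0 and 104 CPM in CDAHFD-fed Cyp2b-null mice. It fell by 3.11-fold in WT females (−1.64, SE 0.212, adjusted p = 8.47e-06, log2 scale), 3.83-fold in Cyp2b-null females (−1.94, SE 0.214, adjusted p = 1.16e-06), 6.50-fold in WT males (−2.70, SE 0.195, adjusted p = 2.68e-09) and 8.47-fold in Cyp2b-null males (−3.08, SE 0.198, adjusted p = 4.76e-10).

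Ces1e, also called egasyn, which anchors β-glucuronidase in the endoplasmic reticulum, was also higher in males than in females on ND. Ces1e was 133, 158, 158 and 185 CPM in ND-fed and 84.0, 51.0, 53.8 and 33.7 CPM in CDAHFD-fed WT females. The corresponding Cyp2b-null females had 124, 172, 129 and 146 CPM and 74.0, 46.8, 74.6 and 59.6 CPM. WT males had 309.8, 413, 332 and 302 CPM on ND, above every female library, and 101, 74.3, 44.7 and 42.1 CPM on CDAHFD. Cyp2b-null males had 249, 299, 295 and 297 CPM and 63.8, 38.1, 31.2 and 58.0 CPM. On CDAHFD the sexes overlapped. The log2 fold change was −1.49 (SE 0.209, adjusted p = 2.01e-05) in WT females, −1.15 (SE 0.207, adjusted p = 0.000281) in Cyp2b-null females, −2.38 (SE 0.242, adjusted p = 2.02e-07) in WT males and −2.59 (SE 0.245, adjusted p = 5.81e-08) in Cyp2b-null males.

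Ces1c, the secreted plasma esterase, was the member with the highest level per length of transcript in all 8 groups and had the smallest change of the 6 called in all comparisons. Ces1c was 4395, 5091, 4582 and 4332 CPM in ND-fed WT females and 3125, 2572, 2597 and 2405 CPM after CDAHFD. Cyp2b-null females had 4702, 4333, 4839 and 4455 CPM and 2798, 3141, 3953 and 2817 CPM, with CDAHFD-fed replicate 3 the highest of its group. WT males had 2892, 2744, 2872 and 2794 CPM on ND and 1748, 1738, 1409 and 1653 CPM on CDAHFD, a spread of only 68.9 CPM (SD, n = 4) on ND. Cyp2b-null males had 2851, 2513, 2714 and 2653 CPM and 1492, 1435, 1226 and 1459 CPM. The diets did not overlap within any sex and genotype. Its log2 fold changes were −0.76 (SE 0.132, adjusted p = 0.000202), −0.50 (SE 0.131, adjusted p = 0.00615), −0.79 (SE 0.118, adjusted p = 2.80e-05) and −0.93 (SE 0.119, adjusted p = 2.70e-06) in WT females, Cyp2b-null females, WT males and Cyp2b-null males. The call in Cyp2b-null females was lost when libraries were scaled by their size only (−0.26, adjusted p = 0.0669).

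Ces1b, the neighbour of Ces1c whose promoter shares the 58-base run, had the lowest level per length of the members on ND and was called in no diet comparison. Its group means were 104 ± 8.76 CPM (SD, n = 4) in ND-fed and 94.3 ± 10.5 CPM in CDAHFD-fed WT females, and 94.1 ± 7.53 and 113 ± 10.5 CPM in Cyp2b-null females. In males they were 70.7 ± 18.0 and 85.5 ± 22.5 CPM in WT, and 73.9 ± 13.9 and 81.2 ± 11.9 CPM in Cyp2b-null mice. In Cyp2b-null females every CDAHFD library lay above every ND library, but the change of 0.29 (SE 0.121, adjusted p = 0.0735) missed the threshold. The other diet changes of Ces1b were −0.12, 0.27 and 0.14 (adjusted p = 0.523, 0.307 and 0.617), with 95% intervals of −0.37 to 0.13, −0.13 to 0.67 and −0.27 to 0.54. Scaled by library size only, Ces1b changed by 0.21 in WT females, against the direction with TMM, and was called higher in the other 3 comparisons (0.54, 0.64 and 0.50 in Cyp2b-null females, WT males and Cyp2b-null males, adjusted p = 0.00109, 0.00528 and 0.0247). Ces1b and Ces1c share sequence in their transcripts too (9.92% of the 50-base and 1.29% of the 100-base windows of Ces1b occur in Ces1c). Over all libraries there were 15.9 to 62.0 Ces1c counts per Ces1b count, so part of the Ces1b count could come from Ces1c reads.

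Ces1g, which also hydrolyses triacylglycerol, was called in no diet comparison either. Ces1g was 310.3, 316, 444 and 421 CPM in ND-fed and 339.6, 312, 267 and 229 CPM in CDAHFD-fed WT females, and 319.95, 350.4, 339 and 303 and 285, 318, 251 and 231 CPM in WT males. The diets overlapped in both sexes. Cyp2b-null females ranged over 299.9 to 409.8 and 328 to 373 CPM, and Cyp2b-null males over 245 to 323 and 229 to 287 CPM. The log2 fold changes were −0.35 (SE 0.151, adjusted p = 0.0971) in WT females, −0.27 (SE 0.122, adjusted p = 0.0948) in WT males, 0.065 (SE 0.150, adjusted p = 0.778) in Cyp2b-null females and −0.11 (SE 0.122, adjusted p = 0.518) in Cyp2b-null males. Their 95% intervals, −0.67 to −0.040, −0.53 to −0.017, −0.25 to 0.38 and −0.37 to 0.14, held no value as low as the changes of Ces1d or Ces1f in the same mice. Scaled by library size only, the change was 0.11 in WT males and 0.26 in Cyp2b-null males, the reverse of the direction with TMM. The change in WT males passed the threshold without CDAHFD-fed replicate 2 (−0.36, adjusted p = 0.0417).

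Ces3a and Ces3b, the members of the Ces3 subfamily, differed in their response. Ces3b was 227, 233, 262 and 268 CPM in ND-fed and 44.0, 56.0, 101 and 46.4 CPM in CDAHFD-fed WT females. Cyp2b-null females had 278, 328, 252 and 394 CPM and 90.3, 99.9, 126 and 67.7 CPM. Ces3b was called lower in each sex and genotype, and in females the lowest ND library of either genotype lay above the highest CDAHFD library. WT males had 514, 376, 462 and 377 CPM on ND and 161, 77.6, 80.2 and 87.5 CPM on CDAHFD, where replicate 1 stood above the others. Cyp2b-null males had 389, 352, 446 and 437 CPM and 96.3, 97.6, 79.7 and 125 CPM. The log2 fold changes of Ces3b were −1.97 (SE 0.230, adjusted p = 2.48e-06) in WT females, −1.68 (SE 0.226, adjusted p = 1.23e-05) in Cyp2b-null females, −2.09 (SE 0.201, adjusted p = 9.58e-08) in WT males and −2.03 (SE 0.200, adjusted p = 9.82e-08) in Cyp2b-null males.

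Ces3a, in contrast, rose in WT females. Ces3a was 668, 716, 422 and 425 CPM in ND-fed and 906, 1033, 1407 and 671 CPM in CDAHFD-fed WT females, an increase of 1.83-fold (0.87, SE 0.210, adjusted p = 0.00391, log2 scale) although the lowest CDAHFD library lay among the ND libraries. Cyp2b-null females had 681, 726, 877 and 742 CPM and 1200.1, 972, 1314 and 866 CPM, a change of 0.55 (SE 0.209, adjusted p = 0.0509) that missed the threshold. It passed without CDAHFD-fed Cyp2b-null female replicate 4 (0.64, adjusted p = 0.0345) and at the same threshold in 5 of 8 alternatives, which ran from 0.50 to 0.79 (adjusted p = 0.00327 to 0.0543), with the lowest p when scaled by library size only. WT males had 1944, 1478, 2058 and 1539 CPM and 1919, 1331, 1259.8 and 1201 CPM, a change of −0.30 (SE 0.158, adjusted p = 0.162) that was called only without CDAHFD-fed replicate 1 (−0.45, adjusted p = 0.0204). Cyp2b-null males had 1710.02, 1848, 1836 and 1973 CPM on ND and 1205, 1286, 1074 and 1482 CPM on CDAHFD with no overlap, and Ces3a changed there by −0.54 (SE 0.158, adjusted p = 0.00954). Scaling by library size only turned the WT male value to 0.075 and ended the call in Cyp2b-null males (−0.19, adjusted p = 0.259).

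The number of Ces3a counts per Ces3b count was higher on CDAHFD than on ND in each sex and genotype, without overlap. It was 1.58 to 3.07 on ND and 13.9 to 20.6 on CDAHFD in WT females, 1.88 to 3.48 and 9.73 to 13.3 in Cyp2b-null females, 3.78 to 4.45 and 11.9 to 17.1 in WT males, and 4.11 to 5.24 and 11.8 to 13.5 in Cyp2b-null males. These ratios were not tested. Ces3a and Ces3b are the most alike of the members, with 25.6% of the 50-base windows of Ces3a and 26.2% of those of Ces3b found in both genes (6.88% and 7.04% of 100-base windows), so reads in those stretches may have been split between them and the level of each is uncertain to that extent.

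The makeup of the family differed between the diets along with its total. The sum of the 10 members was 7873 ± 416 CPM (SD, n = 4) in ND-fed and 4735 ± 662 CPM in CDAHFD-fed WT females, 8115 ± 299 and 5499 ± 783 CPM in Cyp2b-null females, 8168 ± 405 and 4075 ± 622 CPM in WT males, and 8018 ± 59.7 and 3553 ± 340.3 CPM in Cyp2b-null males. Ces3a made up 5.44 to 8.73% of it in ND-fed and 16.9 to 27.8% in CDAHFD-fed WT females, and 17.9 to 24.2% and 32.1 to 39.0% in WT males. Ces1c held 57.1 to 60.0% and 51.3 to 62.8% in WT females, and 33.2 to 36.9% and 35.5 to 44.7% in WT males. The share of Ces1d was 10.5 to 11.2% on ND and 2.31 to 5.99% on CDAHFD in WT females, and 10.2 to 16.6% and 3.49 to 3.85% in WT males. That of Ces2a was 3.51 to 5.41% and 0.645 to 1.17% in WT females, and 6.27 to 6.80% and 1.21 to 1.65% in WT males. These shares are of counts, which grow with transcript length, and they describe the libraries without a test.

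**Figure D3:**
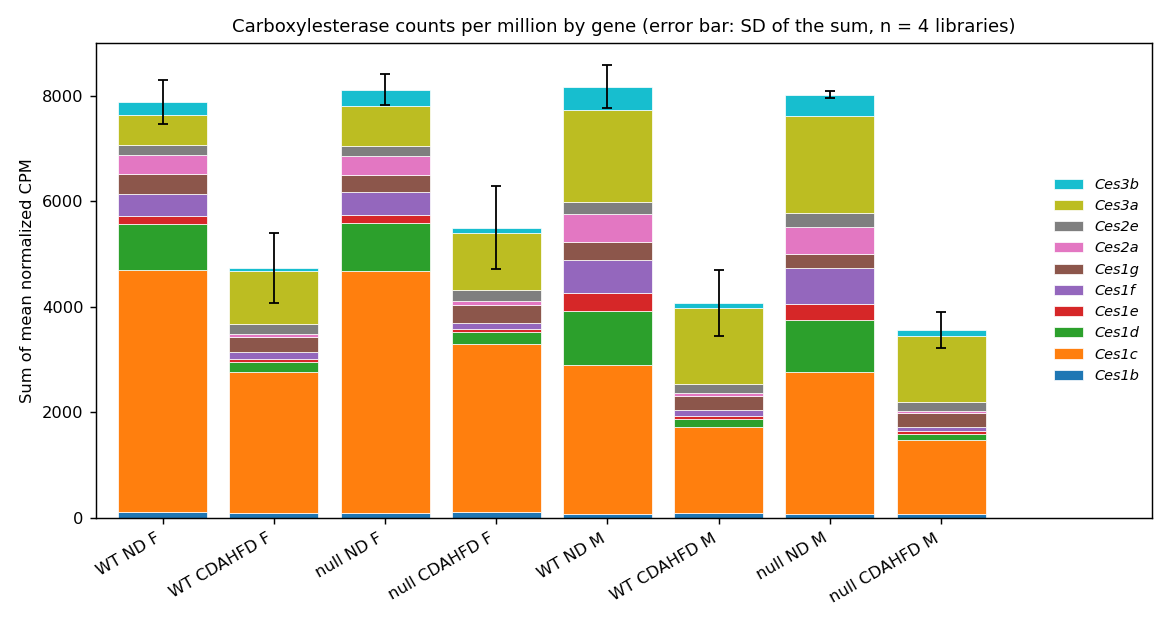
Mean normalized CPM of the 10 carboxylesterases, stacked by gene for each of the 8 groups (F female, M male, null Cyp2b-null), with the SD of their sum over 4 libraries. The sum was 7873 CPM in ND-fed and 4735 CPM in CDAHFD-fed WT females. Ces1c was the largest part in all 8 groups, and Ces3a was a larger part in males than in females.

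Compared per length of transcript (CPM per kb of exon), Ces1c stood first in each of the 8 groups, overlapping Ces3a in CDAHFD-fed males of both genotypes, at 1980.2 ± 148 CPM per kb (SD, n = 4) in ND-fed and 1152 ± 134 in CDAHFD-fed WT females. In ND-fed WT females Ces1d (365 ± 26.6 CPM per kb) came next without overlap, and it was followed by Ces3a (212 ± 59.4), Ces1g (156 ± 29.2), Ces2a (156 ± 20.8) and Ces1f (126 ± 5.10), each of which overlapped the next. Ces3b (96.5 ± 8.01 CPM per kb), then Ces1e (72.4 ± 9.55) overlapping Ces2e (68.6 ± 8.69), and last Ces1b (53.1 ± 4.46) closed the order. In ND-fed WT males Ces3a (668 ± 110.1 CPM per kb) overlapped Ces1d (429 ± 102), and Ces2a, Ces1f, Ces3b, Ces1e and Ces1g followed from 226 ± 19.3 down to 137 ± 8.73, each overlapping its neighbour. On CDAHFD Ces1c and Ces3a stood first and second in all 4 groups. Ces2a had the lowest mean in both WT groups (20.6 ± 6.83 CPM per kb in females and 24.7 ± 6.90 in males) and in both Cyp2b-null groups, in each overlapping the gene just above it, Ces3b in WT females and Ces1e in the others. Ces1g came next after Ces3a in all 4, overlapping Ces1d in WT females, with means of 120.2 ± 20.3 and 114 ± 16.1 CPM per kb in WT females and males.

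Sex was a further axis of variation, which was tested for WT mice on ND in a joint fit of both tables. Of the 10 members, 7 were called, 5 higher and 2 lower in males, where 17.8% of the 14020 genes tested were called, 8.35% higher and 9.45% lower in males. Scaled by library size only, the genes called split into 683 higher and 1669 lower in males (1171 and 1325 with TMM), and 6 members were called, 4 higher and 2 lower. In the same test 6 of 7 macrophage markers were called lower in males (median −0.94), as were 2 of 8 stellate cell and fibroblast markers and 1 of 5 endothelial markers, while of 9 hepatocyte markers 1 was called higher and 2 lower (median 0.14), and their part in the sex differences of the members was not tested. The same 7 members that TMM called showed no overlap between the sexes, against 18% of all genes. Ces3a differed most, with a log2 difference of 1.65 (SE 0.197, adjusted p = 1.60e-07) in favour of males, or 3.15-fold. Ces1e (1.10, SE 0.235, adjusted p = 0.00125) and Ces3b (0.80, SE 0.221, adjusted p = 0.0105) were likewise higher in males. Ces1c was higher in females (−0.70, SE 0.118, adjusted p = 6.61e-05), as was Ces1b (−0.56, SE 0.168, adjusted p = 0.0196). Ces1f (0.63, SE 0.206, adjusted p = 0.0320) and Ces2a (0.54, SE 0.184, adjusted p = 0.0393) were also called higher in males. The calls of 3 of these genes were lost without single libraries, and the 8 fits that left out 1 library called 5 to 6 members. Ces2a was not called in 6 of the 8 fits that left out 1 library (ND-fed WT female replicate 1, 2 or 3 or male replicate 1, 2 or 3, 0.45 to 0.57, adjusted p = 0.0561 to 0.119). Ces1f was not called without female replicate 1, 3 or 4 or male replicate 2 (0.59 to 0.63, adjusted p = 0.0585 to 0.0844), nor Ces1b without female replicate 2 or male replicate 4 (−0.51 and −0.39, adjusted p = 0.0528 and 0.104). Ces1d (0.23, 95% interval −0.23 to 0.70), Ces1g (−0.18, −0.47 to 0.097) and Ces2e (0.29, 0.039 to 0.54) were not called.

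The effect of diet differed between the sexes for some members, by the test of the difference itself. In Cyp2b-null mice 6 members were called, all with a lower log2 change in males than in females. Over all genes 3.4% were called, 1.31% in this direction and 2.09% in the other. For Ces2e and Ces3a the changes in Cyp2b-null females were above 0 (0.14 and 0.55) but not called. The differences, male minus female log2 change, were −1.42 (SE 0.336, adjusted p = 0.0143) for Ces1e, −1.15 (SE 0.328, adjusted p = 0.0428) for Ces1d, −1.12 (SE 0.294, adjusted p = 0.0269) for Ces1f and −1.11 (SE 0.266, adjusted p = 0.0161) for Ces2a. For Ces3a the difference was −1.07 (SE 0.271, adjusted p = 0.0220) and for Ces2e −0.74 (SE 0.174, adjusted p = 0.0135). The call of Ces1e and that of Ces2e were kept in all 16 fits that left out 1 library. The call of Ces2a was lost without CDAHFD-fed male replicate 3 (−0.99, adjusted p = 0.0523), and that of Ces3a without CDAHFD-fed female replicate 3 or male replicate 3 (adjusted p = 0.0530 to 0.0612). Ces1f lost its call without ND-fed female replicate 1 or 4, CDAHFD-fed female replicate 1, ND-fed male replicate 2 or 4, or CDAHFD-fed male replicate 2 or 3 (−1.09 to −0.99, adjusted p = 0.0527 to 0.0815). Ces1d was called in only 3 of the 16 fits, those without CDAHFD-fed female replicate 1 or 2 or male replicate 1, and the other 13 gave −1.23 to −1.02 with adjusted p = 0.0516 to 0.113. Without CDAHFD-fed Cyp2b-null male replicate 3, 2 members were called. In the same test 0 of 9 hepatocyte markers were called (median −0.043), and 4 of 7 macrophage and 3 of 5 endothelial markers were called with a higher diet effect in males. The part of these markers in the differences was not tested.

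In WT mice Ces3a alone was called for a sex difference of the diet effect (−1.15, SE 0.272, adjusted p = 0.0271), where 0.97% of genes were called and 0.3% in this direction. The change of Ces3a was 0.87 in females and −0.30 in males in the fits of each sex, and the call of the difference was lost in 9 of 16 fits that left out 1 library (ND-fed female replicate 3 or 4, CDAHFD-fed female replicate 2 or 3, ND-fed male replicate 1 or 3, CDAHFD-fed male replicate 2, 3 or 4, −1.13 to −0.94, adjusted p = 0.0510 to 0.0955) and when only the groups compared entered the fit (−1.14, adjusted p = 0.119). The fits that left out 1 library called 0 to 2 members. Ces1f (−1.04, SE 0.294, adjusted p = 0.0859) and Ces1e (−0.86, SE 0.335, adjusted p = 0.294) were not called, and the difference of Ces2a was −0.28 (95% interval −0.82 to 0.27). Whether the sex difference itself differed between genotypes was not tested.

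**Figure D4:**
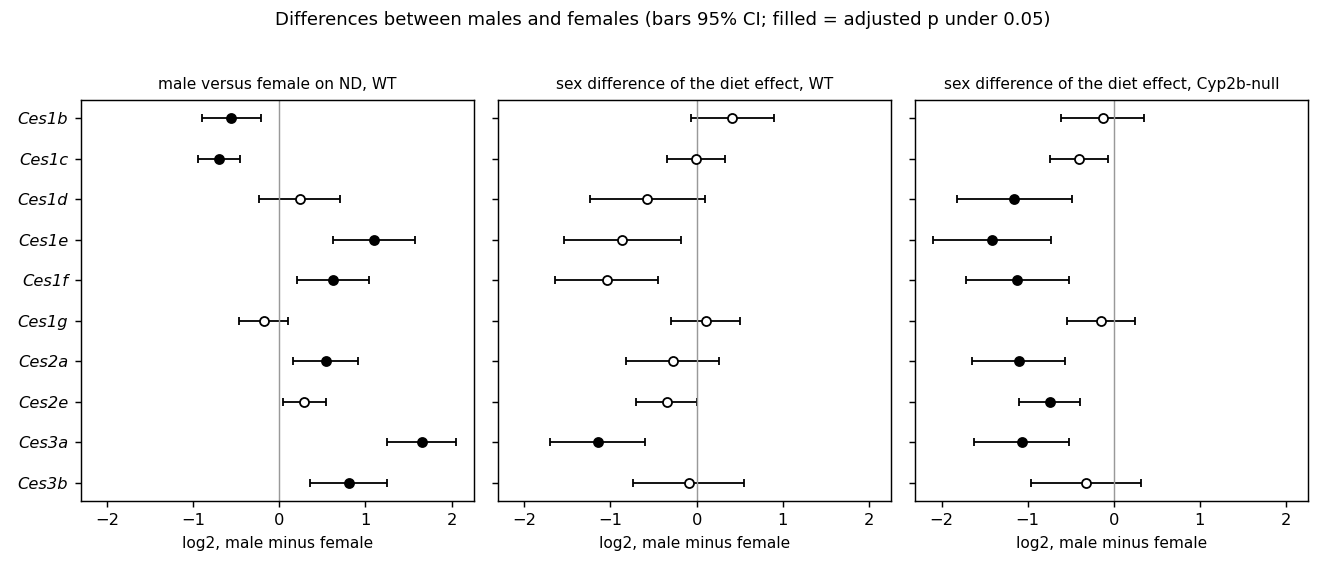
Left, log2 difference of each carboxylesterase between male and female ND-fed WT mice, and middle and right, the male minus female difference of the log2 change with CDAHFD in WT and in Cyp2b-null mice, all with 95% confidence intervals (filled points passed the adjusted p threshold of 0.05). Ces3a is farthest to the right in the left panel (1.65), and 6 genes are filled and below 0 in the right panel.

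Loss of Cyp2b9, Cyp2b10 and Cyp2b13 was not accompanied by a called change of any carboxylesterase. On ND, 0 of 10 members were called in females (edgeR, 0.0756% of genes called) and 0 in males (0.0371%). There 1 member in each sex was under an unadjusted p of 0.05, as were 760 of all 13226 genes in females and 1112 of 13460 in males. On CDAHFD, 0 were called in females (0.0227%) and 0 in males (0.0297%). There 2 and 1 members were under an unadjusted p of 0.05, as were 771 of 13226 and 487 of 13460 genes. DESeq2 called 0 members in these 4 comparisons too. The members with an unadjusted p under 0.05 were Ces3a on ND in females (0.44), Ces1g on ND in males (−0.26), Ces1b and Ces3b on CDAHFD in females (0.26 and 0.63) and Ces2a on CDAHFD in males (−0.40). Ces3b was 44.0, 56.0, 101 and 46.4 CPM in the WT and 90.3, 99.9, 126 and 67.7 CPM in the Cyp2b-null females on CDAHFD, which overlapped, and its difference of 0.63 (SE 0.225, adjusted p = 0.826) was the largest of any member. Ces3b was called there in the fit of all genes without the low-count filter (0.64, adjusted p = 0.0485), whereas the adjusted p was 0.808 to 0.895 under the other 7 alternatives and 0.180 or more when 1 library was left out. The 95% intervals of the genotype differences bound what could have been missed. Over the 40 of them, the lowest bound was −0.96, for Ces1e in CDAHFD-fed males, and the highest 1.10, for Ces3b in CDAHFD-fed females. For Ces2a the intervals were −0.47 to 0.33 and −0.37 to 0.27 on ND, and −0.0042 to 0.84 and −0.73 to −0.060 on CDAHFD. For Ces1d they were −0.41 to 0.58, −0.41 to 0.37, −0.19 to 0.81 and −0.78 to 0.025 in the same order. Only Ces1e on ND in males had genotypes that did not overlap (302 to 413 CPM in WT and 249 to 299 CPM in Cyp2b-null mice, adjusted p = 0.826), where 3.86% of all genes did not overlap. In the other 3 genotype comparisons 0 members had genotypes without overlap, against 3.55% of genes on ND in females and 2.83% and 2.54% on CDAHFD in females and males. The median difference of the members on CDAHFD was 0.25 in females and −0.20 in males, against −0.0068 and 0.0050 over all genes.

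The interaction of diet and genotype was called for 0 members in females (edgeR, 0% of genes) and 0 in males (0.00743% of genes). Under an unadjusted p of 0.05 were 1 member and 830 of all 13226 genes in females. In males 0 members and 817 of 13460 genes were. DESeq2 also called 0 members in both. The largest interaction was that of Ces2a in females, 0.48 (95% interval −0.097 to 1.07, adjusted p = 0.760), and in males that of Ces1f, −0.38 (−0.93 to 0.16, adjusted p = 0.876).

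**Figure D5:**
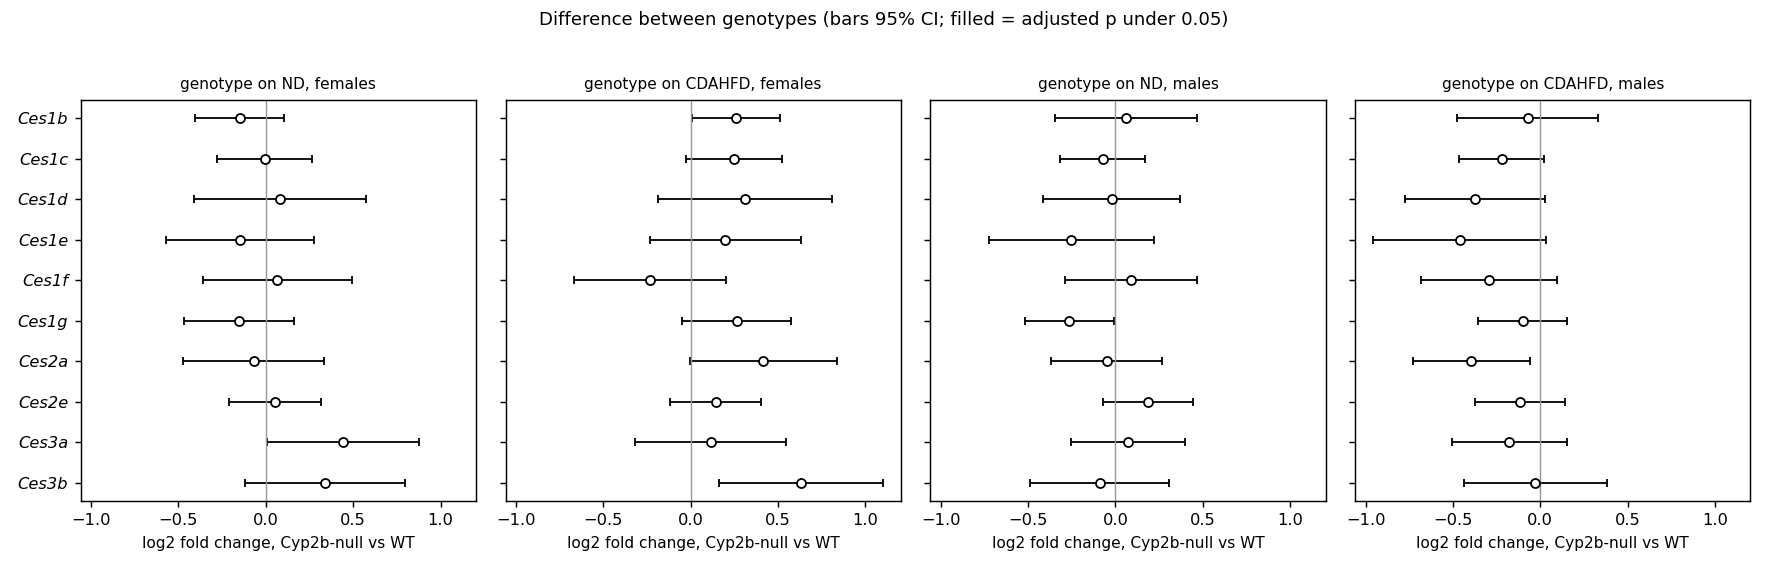
Log2 fold change of each carboxylesterase between Cyp2b-null and WT mice on ND and on CDAHFD in females and males, with 95% confidence intervals. All 40 points are open, that is, none passed the adjusted p threshold of 0.05, and Ces3b in CDAHFD-fed females is farthest from 0 (0.63).

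The members that fell with diet tracked each other and other hepatocyte enzymes across libraries, which is a description over 16 libraries per sex that share the diet difference. The mean over the sexes of the Pearson r of log2 CPM was 0.980 for Ces1f with Ces2a, 0.979 for Ces1d with Ces2a and 0.971 for Ces1d with Ces1f. Ces3a and Ces1d had r = −0.599 in females and 0.729 in males. Among 12978 genes compared, the closest to Ces2a were Cyp27a1 (mean r = 0.987), a bile acid enzyme, Slc27a5 (0.983), a bile acid and fatty acid CoA ligase, and Pipox (0.983), a peroxisomal oxidase. The closest to Ces1d were Cyp2c29 (0.978), a drug-metabolizing cytochrome P450, Aldh8a1 (0.972) and Slc27a5 (0.971), and those closest to Ces1e were Aldh8a1 (0.969), Serpina1d (0.961) and Slc27a5 (0.960). Ces1f lay nearest to Cat (0.981), which encodes catalase, Ugt2a3 (0.978) and Pipox (0.976). Ces1c lay nearest to Mbl2 (0.971), Apoh (0.969) and Cyp27a1 (0.968), of which Mbl2 and Apoh encode secreted plasma proteins, and Ces3b to Serpina1c (0.965), Ugt2a3 (0.964) and Cyp27a1 (0.964). Ces3a had weaker matches, Alas2 (0.837), Ociad2 (0.836) and C9 (0.811), and so did Ces2e (Serpina12, 0.772), Ces1g (Cyp2j6, 0.722) and Ces1b (Slc22a18, 0.631).

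Of the other 10 carboxylesterase genes of the tables, only Ces2c and Ces2g passed the low-count filter in both sexes, and the pseudogene Ces2d-ps passed it in males. Ces2g was 59.1 ± 20.2 CPM (SD, n = 4) in ND-fed and 78.7 ± 10.2 CPM in CDAHFD-fed WT females, and was called higher on CDAHFD only in Cyp2b-null males (0.59, adjusted p = 0.000452), its other diet changes lying at 0.43, 0.39 and 0.25 in WT females, Cyp2b-null females and WT males. Ces2c rose in Cyp2b-null females (0.92, adjusted p = 0.0108), from 11.6 ± 1.96 to 21.2 ± 4.69 CPM, and was higher in male than in female WT mice on ND (1.17, adjusted p = 0.000963). Neither was called lower with diet, and the diet effect on Ces2c was lower in males than in females among Cyp2b-null mice (−1.12, adjusted p = 0.0483). Ces4a had 4 to 15 counts in ND-fed and 0 to 1 in CDAHFD-fed WT males and 6 to 19 and 2 to 4 in Cyp2b-null males, differences that a fit without the low-count filter called (adjusted p = 0.000101 and 0.000403). Ces1a, Ces1h, Ces2b, Ces2f and Ces2h had at most 9 counts in any library, and Ces5a had 0 in all, which allows at most 0.295 to 1.03 CPM depending on depth.

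Genes of related pathways changed in both directions with diet, and none of those tested in the 4 lists described next was called for genotype on either diet. Over all genes, 24.1%, 30.8%, 33% and 37.4% were called for diet in WT females, Cyp2b-null females, WT males and Cyp2b-null males. The shares called lower were 10.2%, 13.9%, 15% and 17.1%, and these are the background for each list. Of 16 neutral lipid hydrolases and cofactors tested in females, 4 were called higher and 3 lower in both genotypes, and of 15 tested in males 2 were higher and 4 (WT) or 5 (Cyp2b-null) lower, with medians from −0.13 to 0.15. Lpl, lipoprotein lipase, rose by 3.28 in WT females and 3.92 in WT males (adjusted p = 3.09e-10 and 2.05e-09). G0s2, the inhibitor of adipose triglyceride lipase, fell in males (−1.45 in WT and −2.43 in Cyp2b-null, adjusted p = 0.00132 and 4.14e-06), and Abhd6, a monoacylglycerol lipase, fell in WT females and males (−0.53 and −0.76, adjusted p = 0.0448 and 0.00142). Pnpla3 had 3 to 103 counts in ND-fed and 0 to 3 in CDAHFD-fed WT females. Plin2, the gene of that list with the highest mean CPM and a coat protein of lipid droplets, rose in WT females (0.74, adjusted p = 0.0190) and was not called in WT males (0.28, adjusted p = 0.195).

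Among genes of triacylglycerol and VLDL synthesis, 6 of 14 tested were called lower and 1 higher in WT females, 7 and 1 in Cyp2b-null females, and, of 15 tested, 4 and 2 in WT males and 5 and 2 in Cyp2b-null males, with medians of −0.39, −0.45, −0.30 and −0.20. Gpam, which starts glycerolipid synthesis, fell in WT females and males (−0.81 and −1.09, adjusted p = 0.00340 and 0.000127). Lpin1, a phosphatidate phosphatase, fell in females (−1.94 in WT, adjusted p = 0.00320) and was not called in WT males (−0.35, adjusted p = 0.383). Soat1, a cholesterol esterifying enzyme, rose by 1.88 and 3.36 in WT females and males (adjusted p = 9.02e-07 and 1.52e-08), and Mogat2 had 0 to 3 counts in ND-fed and 3 to 15 in CDAHFD-fed WT males. Apob, the structural protein of VLDL and the gene with the highest mean CPM of the list, changed by −0.23 and −0.31 in WT females and males (adjusted p = 0.323 and 0.282).

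Of 16 other drug and ester hydrolases tested, 7 were called lower in WT females, 9 in Cyp2b-null females, 7 in WT males and 8 in Cyp2b-null males, and 2, 1, 2 and 3 higher, with medians from −0.56 to −0.33. Afmid, which hydrolyses formylkynurenine, fell in WT females and males (−2.06 and −2.35, adjusted p = 5.94e-06 and 3.84e-10). The acyl-CoA thioesterases moved apart, with Acot3 at −2.22 (adjusted p = 6.27e-05) and Acot2 at 1.31 (adjusted p = 0.00359) in WT females, and Acot1 at −1.81 (adjusted p = 0.000117) in WT males. Pon1, paraoxonase 1 and the gene with the highest mean CPM of the list, fell in WT females and males (−1.05 and −0.76, adjusted p = 9.92e-06 and 0.000270). The sex difference of the diet effect in Cyp2b-null mice was called for 3 of these 16 genes, all with a lower effect in males (edgeR). Over all genes 3.4% were called, 1.31% in this direction. In WT mice 0 of the 16 were called, against 0.97% of genes. Among the other lists, the difference in Cyp2b-null mice was called lower for 1 of 16 neutral lipid hydrolases and cofactors. It was called higher for 2 and lower for 1 of 15 genes of triacylglycerol and VLDL synthesis, and higher for 1 of 17 regulators.

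Of 17 regulators of drug and lipid metabolism, 6, 9, 6 and 7 were called lower in WT females, Cyp2b-null females, WT males and Cyp2b-null males, and 1, 0, 1 and 0 higher, with medians from −0.41 to −0.33. Ghr, the growth hormone receptor, fell in WT females and males (−1.20 and −1.03, adjusted p = 1.23e-05 and 6.32e-05). Srebf1, the lipogenic transcription factor, fell in WT females and males (−0.82 and −1.07, adjusted p = 0.00353 and 0.000459), and Esr1, the estrogen receptor, fell in WT females (−0.96, adjusted p = 0.00114). Hnf4a, a hepatocyte identity factor and the gene with the highest mean CPM of the list, fell in WT females and males (−0.58 and −0.74, adjusted p = 0.0114 and 7.13e-05). Nr1i3 and Nr1i2, the receptors CAR and PXR that induce drug-metabolizing genes, changed by −0.46 (adjusted p = 0.0660) and −0.57 (adjusted p = 0.0232) in WT females. Both were chosen for naming after their values were seen, and their changes in the other diet comparisons are not given here. In WT males their counts, not scaled for depth, overlapped between diets. Nr1i3 had 238 to 491 on ND and 195 to 427 on CDAHFD, and Nr1i2 295 to 602 and 247 to 508. Nr0b2, a repressor in bile acid synthesis, fell in WT females (−0.89, adjusted p = 0.0352).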

How the data were processed

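Liver RNA was extracted with Trizol and sequenced as paired reads of 150 bases from NEB Next Ultra libraries. The authors trimmed reads with Trimmomatic after FastQC, aligned them to GRCm38.p6 with GSNAP and counted them per gene with Subread; versions are not given in the sources used here, nor how strand and multiply mapped reads were counted. The deposited values are raw read counts per gene, 1 table for each sex.

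Genes passing filterByExpr (minimum count 10, minimum total 15) were tested by edgeR 4.0.16 (TMM factors, quasi-likelihood test, R 4.3.3). Diet, genotype and their interaction came from a fit of the 4 groups of a sex, and sex contrasts from a joint fit of 32 libraries. P-values were adjusted over all genes of a fit, with calls at 0.05. Printed CPM use 1 TMM scaling of all 32 libraries, so a ratio of printed CPM can differ slightly from a fitted fold change. Standard errors came from log2 fold change and F statistic. Correlations used log2 CPM with a prior count of 2. On simulated counts, 75.8% of 2-fold and 98% of 4-fold changes were recovered for diet in WT females, and 75.5% and 100% in WT males. In the simulation few genes changed (99 by 2-fold and 98 by 4-fold of 12985 in females), up and down alike. Its spread followed the trend over all genes, so these rates need not hold for the data. DESeq2 1.42.0 was an alternative, with others given under the dependence on processing.

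The 10 members, the pathway and marker lists and the tests were chosen with earlier results of these data known. All members are described. From each list up to 4 genes with a large change and the gene with the highest mean CPM are named, apart from genes said to be chosen after their values were seen. Those with a large change are examples and not always the largest of their list in each comparison, and Lipc, hepatic lipase, is among those left out. Similar genes are the 3 with the highest mean Pearson r outside the family. Protein features were not analysed here. Nothing in the labels says that the 4 samples of a group came from separate animals, so p-values measure the spread between these samples. With 4 libraries a group and 2906411 to 10166959 counts each, intervals for values at 0 cover counting error only.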

Additional observations from a re-analysis of the deposited data

Results flagged for a closer look

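In 4 of 80 groups of 4 libraries, 10 members in 8 groups, 1 library lay apart from the others by Dixon's criterion at the 95% level, where chance alone marks about 1 in 20. Ces1e was lowest in ND-fed Cyp2b-null male replicate 1 (248.7 CPM), Ces1g was highest in ND-fed Cyp2b-null female replicate 1 (409.8 CPM), Ces2a was lowest in CDAHFD-fed WT female replicate 4 (24.7 CPM), and Ces3b was highest in CDAHFD-fed WT male replicate 1 (161 CPM). These are 4 different libraries, and leaving out any of them left the diet call of the gene concerned as it was.

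The diet effect differed between males and females by the test of the difference for Ces3a in WT mice (−1.15, male minus female on the log2 scale). In Cyp2b-null mice it differed for Ces1e (−1.42), Ces1d (−1.15), Ces1f (−1.12), Ces2a (−1.11), Ces3a (−1.07) and Ces2e (−0.74). Sex and deposited table cannot be told apart in these comparisons.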

How the results depend on the processing

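Of 479 values recomputed under alternatives for single members, 451 kept their direction and side of the threshold, 6 lost the call, 17 gained it and 5 changed sign. The 5 sign changes came from scaling by library size only: Ces1b in WT females (0.21), Ces1g in WT males (0.11) and Cyp2b-null males (0.26), Ces2e in WT males (0.060) and Ces3a in WT males (0.075), where the median of all genes shifted by a like amount. Of 544 values from fits without 1 library, 493 kept both, 44 lost the call, 6 gained it and 1 changed sign, the diet change of Ces2e in WT females (−0.0097 to 0.12).

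The counts of members called for diet stayed within 1.5 times the counts given under all alternatives. For the sex difference of the diet effect in WT mice, 2 members were called at an adjusted p under 0.1, with library size only and with DESeq2, 3 without the low-count filter and 0 with only the groups compared, and 0 to 2 when 1 library was left out. In Cyp2b-null mice 2 to 6 were called when 1 library was left out. For genotype on CDAHFD in females, 1 member (Ces3b) was called without the filter.

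Without the low-count filter the genes called numbered 122 and 69 for genotype on ND and on CDAHFD in females, 170 and 51 in males, 46 and 95 for the interactions in females and males, and 469 and 923 for the sex differences in WT and Cyp2b-null mice. DESeq2 called 23 and 5 genes for genotype on ND and CDAHFD in females, 72 on ND in males, 2 and 3 for the interactions and 220 for the sex difference in WT mice. At an adjusted p under 0.1 there were 1 for the interaction in females, 11 for genotype on ND in males, and 219 and 983 for the sex differences in WT and Cyp2b-null mice. With library size only there were 3 for genotype on ND and 2 for the interaction in males. A filter of at least 1 CPM in 4 libraries gave 1 for the interaction in females. With only the groups compared there were 2 for genotype on ND in males, 79 for the sex difference in WT mice and 1534 for males against females. Leaving out 1 library gave 0 to 1 for the interaction in females, 2 to 29 and 1 to 3 for genotype on ND and CDAHFD in males, 0 to 3 for the interaction in males, 84 to 261 and 238 to 578 for the sex differences, and 1579 to 2594 for males against females. The cause of these moves was not tested.

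With the replicate block, 8 genes were called for genotype on ND in males, and 7, 7, 6 and 8 members for diet in WT females, Cyp2b-null females, WT males and Cyp2b-null males, where Ces3a in Cyp2b-null females was the added call (0.53, adjusted p = 0.0398). The counts of all genes called for diet stayed within 1.5 times the counts given. The block changed no other call of a diet effect. Deviations of same-numbered libraries had r of −0.11 to 0.18 in females and −0.19 to 0.29 in males, and 5 of 16 libraries in each sex correlated best with their own number, so the numbers were not taken as pairs. The members had 158 counts or more in every library, and Ces4a had 0 to 19 in males.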
